A study of Mus musculus with 5 samples.

Results

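The genes described here encode the enzymes by which heart mitochondria break down pyruvate, branched-chain amino acids and ketone bodies and pass the products through the citrate cycle. The 36 genes were listed by name and not by a threshold on the measured values, although earlier results of these data were known when the list was made: 14 for the citrate cycle, 4 for the pyruvate dehydrogenase complex, 15 for branched-chain amino acid and propionate catabolism and 3 for ketone body use. All 36 had a probe set that carried their symbol alone, out of 19938 genes measured in this way on the arrays, and the brightest probe set stood for each gene. Mut is listed in the current annotation as Mmut.

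The tissue was whole heart graft from syngeneic heterotopic transplantation into the peritoneal cavity of C57BL/6 mice, and RNA of each graft was read on an Affymetrix Mouse Gene 1.0 ST array of its own. In the I/R group (n = 3), donor hearts had been kept in University of Wisconsin solution for 18 h at 4 °C before implantation. In the non-I/R group (n = 2), hearts were implanted without that storage, so both groups share the transplantation and the reperfusion that follows, and the comparison asks what the added cold storage did. The labels give 24 h after transplantation as the time of harvest, the study's text gives a later day, the storage wording stands in the protocol field of both groups, and the groups were therefore taken from the source names. Grafts are numbered within each group in name only. Nothing in the labels ties the grafts to litters, days or batches, and the spread that enters the p-values is that between these samples, which may in part be technical. Signals are log2 values, in which a difference of 1 is a 2-fold change, and the median signal of the arrays lay between 6.58 and 6.65.

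The citrate cycle oxidises acetyl-CoA to carbon dioxide and hands its electrons to the respiratory chain, and the beating heart depends on it for nearly all of its ATP. Acetyl-CoA reaches the cycle from fatty acids, from pyruvate through the pyruvate dehydrogenase complex, from ketone bodies and from leucine, while valine and isoleucine also enter as succinyl-CoA by way of propionyl-CoA. Heart muscle takes up and burns ketone bodies readily but makes few of them, and branched-chain amino acids are a minor fuel whose catabolism is controlled by phosphorylation of the branched-chain ketoacid dehydrogenase complex.

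Promoter sequences of 32 of the 36 genes were found in a RefSeq table of GRCm38.p6, in windows of 300 bases that run from 250 bases before each start of transcription. Idh3a, Dbt, Mut and Acat1 had no match by symbol. Short motifs known from promoters of mitochondrial genes were searched on both strands, and the stretches below are shown because they place such a motif beside a gene whose signal is described in the following paragraphs, with the motif in capitals and the sequence written 5′ to 3′ on the strand of the gene.
Ogdh, NRF-1 motif, chr11:6292533-6292561 (+): taggtgttgtGCGCATGCGtaactcaact
Pccb, NRF-1 motif, chr9:101034901-101034929 (-): tacgctctctGCGCATGCGtcctgaggtg
Idh3g, YY1 motif, chrX:73787010-73787037 (-): tcccctccccAAGATGGCggaacagtgc
Idh3g, ETS motif, chrX:73786985-73787011 (-): gctctaggcaCCGGAAGggggcgtaag
Idh3b, ETS motif read on the opposite strand, chr2:130284440-130284466 (-): accgcgctcgCTTCCGGcgtcacttcc
Auh, ETS motif read on the opposite strand, chr13:52929901-52929927 (-): atcttccttcCTTCCGGgatggtcagt

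The NRF-1 motif GCGCATGCG lay in 3 of 42 promoters of these genes (7.14%), those being 2 starts of Ogdh and 1 of Pccb, and in 1.75% of all 32851 promoters. The 2 Ogdh windows overlap and hold the same site. Counted by gene, the motif lay in 2 of 32 (6.25%), against 1.95% of all genes with a promoter. The ETS motif CCGGAAG, which GABP can bind, lay in 9.52% of the promoters of these genes (Auh, Dlst, Idh3b and Idh3g) and in 8.86% of all promoters. The YY1 motif AAGATGGC was found for Bckdha and Idh3g, in 4.76% against 2.75%. The element TCAAGGTCA of the estrogen-related receptors was in none of the 42 windows and in 0.423% of all promoters. These are matches of letters in short windows, and genes with and without a match alike had lower mean signals in the I/R grafts.

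All 36 genes had a lower mean signal in the I/R grafts than in the non-I/R grafts. For 35 of them, the highest I/R graft was under the lower of the 2 non-I/R grafts, where 16.2% of the 21789 probe sets with a single symbol did so, and 22.3% of the 8466 with a mean signal of at least 8, the range in which these genes lie. The exception was Bdh1. None of the 36 lay above both non-I/R grafts, a pattern seen in 15.8% of all probe sets. Log2 fold changes ran from -1.11 for Auh to -0.39 for Mdh2, with a median of -0.65, against a median of -0.00793 over all probe sets. Auh alone was at least 2-fold lower, and 22 of the 36 were at least 1.5-fold lower. Of all 21789 probe sets, 205 had a lower log2 fold change than Auh. A further comparison is Bckdha (-0.58), close to the 1.5-fold line, with 978 probe sets lower.

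With limma, 25 of the 36 genes were lower at an unadjusted p under 0.05 and 0 were higher, where 7.35% of all probe sets were lower and 7.64% higher by the same rule, and 12.9% were lower among those with a mean signal of at least 8. No gene passed after Benjamini-Hochberg adjustment, among these 36 or among all 21789 probe sets (0.0%), and limma's adjusted p for the 36 ran from 0.282 to 0.518. The methods' t-test with the same adjustment passed 2 of all probe sets and 0 of the 36. "Fell" and "rose" below therefore refer to the unadjusted p. The count rested on individual grafts. It was 19 without I/R 1, 30 without I/R 2 and 13 without I/R 3. Over all 21789 probe sets, 1475, 1256 and 1041 were lower by the same rule in those fits. Leaving out either non-I/R graft left a lone non-I/R graft, and the count dropped further. With non-I/R 1 left out, the share called was close to that over all probe sets. Suclg1 and Mut were called with any of the 5 grafts left out, and the other 23 lost the call in at least 1 of these fits. The direction of each of the 36 genes was the same in all of these fits.

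**Figure D1:**
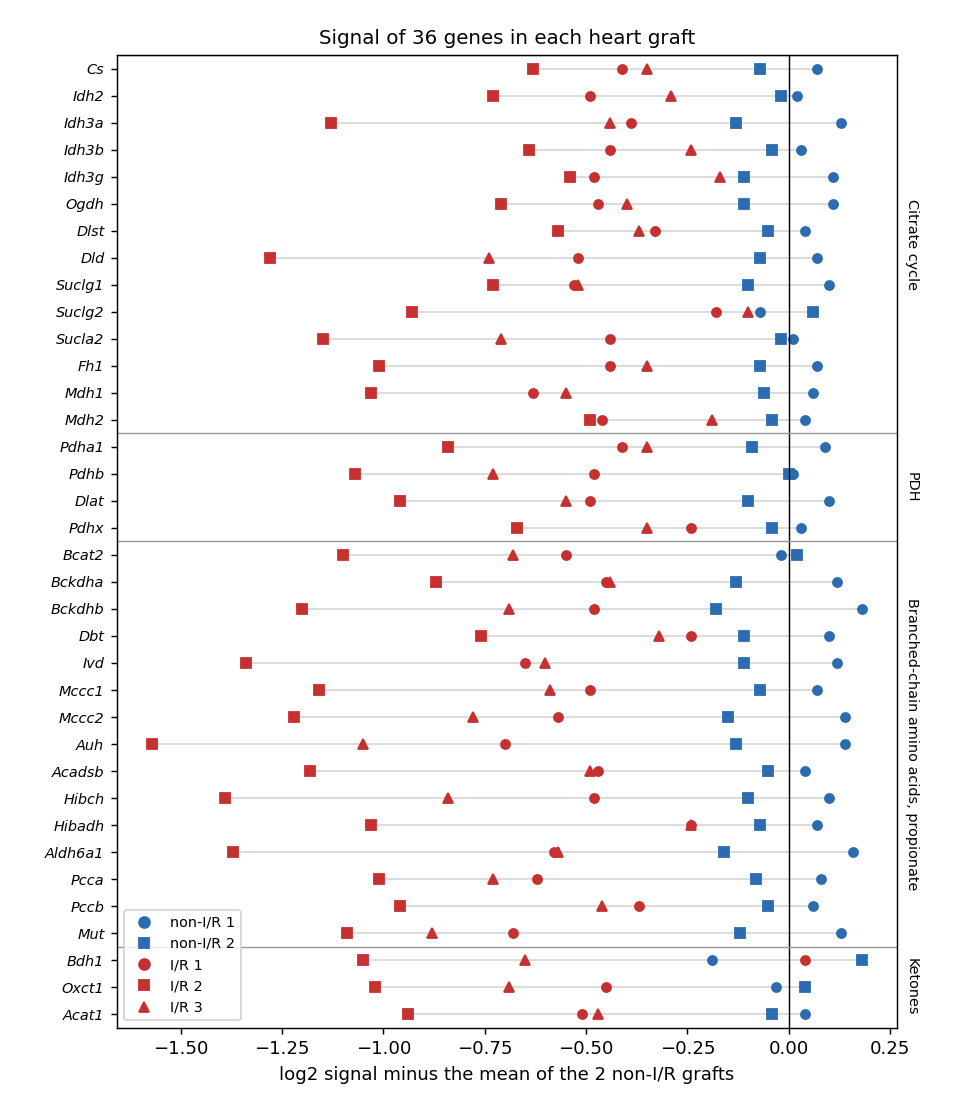
Signal of each of the 36 genes in each of the 5 heart grafts, as log2 signal minus the mean of the 2 non-I/R grafts (blue for non-I/R, red for I/R, 1 symbol for each graft). I/R 2, the red squares, was the lowest graft for all 36 genes, and the groups overlapped for Bdh1 alone.

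The grafts within a group were not alike. I/R 2 was the lowest of the 5 grafts for 36 of 36 genes, and it lay more than 0.5 below I/R 1 for 20 of them. This was not particular to these genes. I/R 2 was also the lowest graft in the mean distance from the 5-graft mean for fatty acid oxidation (-0.47) and respiratory chain subunits (-0.41). The same held for cardiomyocyte markers (-0.36), and the value over all probe sets was -0.0252. Non-I/R 1 was above non-I/R 2 for 32. The SD between I/R grafts had a median of 0.285 and ran from 0.12 to 0.55, while the SD between the 2 non-I/R grafts had a median of 0.101 and reached 0.261 (Bckdhb). The gap between the lowest non-I/R and the highest I/R graft was widest for Auh, at 0.562. Among the genes without overlap it was narrowest for Suclg2, at 0.0335.

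In the citrate cycle, 10 of 14 genes fell and the other 4 had lower mean signals that did not pass, with a median log2 fold change of -0.52 and a range from -0.85 to -0.39. Citrate synthase (Cs), which joins acetyl-CoA to oxaloacetate and opens the cycle, had signals of 12.51 and 12.37 in the non-I/R grafts and 12.03, 11.81 and 12.09 in I/R grafts 1, 2 and 3. The groups did not overlap, and Cs fell by 0.46 on the log2 scale (SE 0.107, adjusted p = 0.284 by limma). Among the isocitrate dehydrogenases, the NADP-dependent Idh2 fell by 0.51 (SE 0.145), and of the NAD-dependent enzyme the regulatory subunit Idh3b fell by 0.44 (SE 0.137). The catalytic subunit Idh3a had a log2 fold change of -0.65 with an SE of 0.288 (adjusted p = 0.404 by limma) and the other regulatory subunit Idh3g of -0.40 (SE 0.151, adjusted p = 0.351 by limma). Idh3a varied more between I/R grafts, at 11.46, 10.72 and 11.41, than Idh3b did, at 12.18, 11.98 and 12.38.

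The alpha-ketoglutarate dehydrogenase complex is built from Ogdh, Dlst and Dld, and all 3 fell. Ogdh, the decarboxylating subunit, fell by 0.52 (SE 0.131), and Dlst, the succinyl transferase, by 0.42 (SE 0.0931). Dld, the dihydrolipoyl dehydrogenase that this complex shares with the pyruvate and branched-chain complexes, had the greatest difference of the citrate cycle genes. Its signal was 11.05 and 10.91 in non-I/R grafts and 10.46, 9.70 and 10.24 in I/R grafts, so that I/R 2 stood well below the other I/R grafts. The log2 fold change was -0.85 (SE 0.263, adjusted p = 0.308 by limma), and it ran from -1.01 to -0.63 as each graft was left out in turn.

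Succinyl-CoA ligase makes GTP or ATP according to which beta subunit, Suclg2 or Sucla2, pairs with the common alpha subunit Suclg1. Suclg1 had signals of 10.93 and 10.73 in non-I/R grafts and 10.30, 10.10 and 10.31 in I/R grafts. It fell by 0.59 (SE 0.104, adjusted p = 0.282 by limma), the smallest unadjusted p of the 36. The ATP-forming subunit Sucla2 fell by 0.76 (SE 0.237), from 11.78 and 11.75 to 11.33, 10.62 and 11.06. The GTP-forming Suclg2 had signals of 10.40 and 10.53 in non-I/R grafts and 10.29, 9.54 and 10.37 in I/R grafts. For Suclg2 the separation of the groups was 0.0335, and its log2 fold change of -0.40 (SE 0.306, adjusted p = 0.518 by limma) was -0.13 without I/R 2. A dimmer probe set of Suclg2 gave -0.29 (SE 0.297), with I/R 3 at 10.19 beside non-I/R 2 at 10.19.

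Fumarase (Fh1), which hydrates fumarate to malate, had a log2 fold change of -0.60 with an SE of 0.241 (adjusted p = 0.37 by limma). Both malate dehydrogenases fell, the cytosolic Mdh1 of the malate-aspartate shuttle by 0.74 (SE 0.172) and the mitochondrial Mdh2, which closes the cycle, by 0.39 (SE 0.115). Mdh1 read 12.81 and 12.69 in non-I/R grafts and 12.12, 11.72 and 12.20 in I/R grafts. Mdh2 read 12.94 and 12.86 against 12.44, 12.41 and 12.71, so that I/R 3 was nearer to the non-I/R grafts.

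The pyruvate dehydrogenase complex, which commits pyruvate to oxidation, had a median log2 fold change of -0.60 over its 4 genes, and 3 of them fell. The subunits of its decarboxylase, Pdha1 and Pdhb, fell by 0.53 (SE 0.186) and 0.76 (SE 0.199). Pdhb had nearly the same signal in the non-I/R grafts, 10.19 and 10.18, and 9.70, 9.11 and 9.45 in the I/R grafts. Dlat, the acetyl transferase of the core, read 11.28 and 11.08 against 10.69, 10.22 and 10.63, and fell by 0.66 (SE 0.181). Pdhx, which anchors Dld to that core, had a log2 fold change of -0.42 with an SE of 0.151 (adjusted p = 0.339 by limma).

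Branched-chain amino acid and propionate catabolism had the greatest median difference of the 4 groups, -0.79, with a range from -1.11 to -0.44, and 10 of 15 genes fell. This order did not hold in every fit. Without non-I/R 1 the median was -0.68 here and -0.73 for ketone body use. The mean deviation of these 15 genes minus that of the 14 citrate cycle genes was 0.167 and 0.0823 in the non-I/R grafts and 0.0637, -0.201 and -0.112 in the I/R grafts. The margin between the 2 groups of genes was small in I/R 1, where it came close to that of non-I/R 2, and the difference between the gene groups was not tested.

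The pathway opens with Bcat2, the mitochondrial transaminase that takes the amino group from leucine, isoleucine and valine. Bcat2 had signals of 10.41 and 10.45 in non-I/R grafts and 9.88, 9.33 and 9.75 in I/R grafts, and fell by 0.78 (SE 0.193, adjusted p = 0.286 by limma). Of the branched-chain ketoacid dehydrogenase complex, the decarboxylase subunits Bckdha and Bckdhb fell by 0.58 (SE 0.181) and 0.79 (SE 0.274). The acyl transferase of the complex, Dbt, had a log2 fold change of -0.44 with an SE of 0.199 (adjusted p = 0.415 by limma), the smallest difference of this pathway.

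On the leucine branch, Ivd, Mccc1, Mccc2 and Auh all fell. Ivd, the isovaleryl-CoA dehydrogenase, went from 11.18 and 10.95 to 10.41, 9.72 and 10.46, a fall of 0.86 (SE 0.286). The alpha and beta subunits of methylcrotonyl-CoA carboxylase, Mccc1 and Mccc2, fell by 0.75 (SE 0.246) and 0.85 (SE 0.24). Auh, the methylglutaconyl-CoA hydratase that also binds AU-rich RNA, had signals of 9.998 and 9.73 in the non-I/R grafts and 9.16, 8.29 and 8.81 in the I/R grafts. No I/R graft came within 0.562 of a non-I/R graft, and Auh was 2.15-fold lower, a log2 fold change of -1.11 with an SE of 0.303 (adjusted p = 0.29 by limma). Left-out grafts moved that value between -1.31 and -0.87. Auh stands in the study's own list of genes past a 2-fold threshold, so its size had been seen before it was computed here.

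On the valine and isoleucine branches, 1 of 4 genes fell, with standard errors from 0.271 to 0.321. Hibch, which releases hydroxyisobutyrate from its CoA ester, fell by 0.90 (SE 0.31), from 8.90 and 8.70 to 8.32, 7.41 and 7.96. Acadsb, the short/branched-chain acyl-CoA dehydrogenase, and Aldh6a1, the methylmalonate semialdehyde dehydrogenase, had log2 fold changes of -0.71 (SE 0.271, adjusted p = 0.351 by limma) and -0.84 (SE 0.321, adjusted p = 0.353 by limma). Hibadh, which oxidises hydroxyisobutyrate, had signals of 12.003 and 11.86 in non-I/R grafts and 11.69, 10.90 and 11.69 in I/R grafts. I/R 2 was the lowest, and the log2 fold change of -0.50 (SE 0.305, adjusted p = 0.477 by limma) became -0.24 without that graft. A dim second probe set of Hibadh, with signals between 6.07 and 7.19, had a log2 fold change of 0.37 (SE 0.33) in the opposite direction.

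Of the 3 genes of the propionate steps, which feed succinyl-CoA into the cycle, 2 fell. Mut, the cobalamin-dependent methylmalonyl-CoA mutase, had signals of 9.95 and 9.70 in non-I/R grafts and 9.14, 8.73 and 8.94 in I/R grafts. It fell by 0.89 (SE 0.159, adjusted p = 0.282 by limma), with a range from -1.01 to -0.76 as grafts were left out. Pcca, the biotin-bearing alpha subunit of propionyl-CoA carboxylase, read 9.40 and 9.24 against 8.70, 8.31 and 8.59 and fell by 0.79 (SE 0.145). Its partner Pccb had a log2 fold change of -0.60 with an SE of 0.214 (adjusted p = 0.336 by limma).

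**Figure D2:**
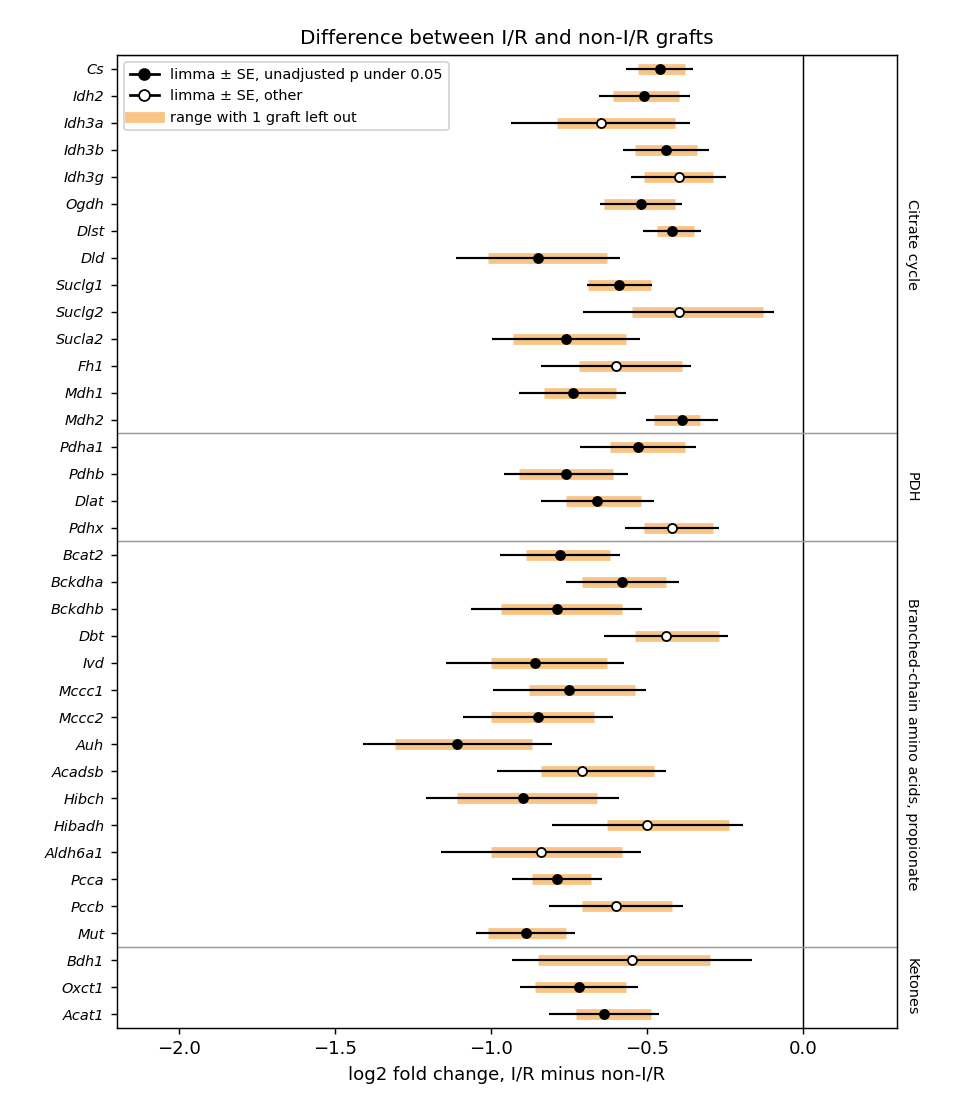
Log2 fold change of each gene, I/R minus non-I/R, with its standard error from limma (points and black lines) and the range of values with 1 graft left out (orange bars). Filled points are the 25 genes with an unadjusted p under 0.05, and no orange bar reaches 0.

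Ketone body use had the lone member whose groups overlapped. Bdh1, which oxidises beta-hydroxybutyrate to acetoacetate, had signals of 8.23 and 8.60 in non-I/R grafts and 8.46, 7.37 and 7.77 in I/R grafts. I/R 1 lay between the 2 non-I/R grafts, and the log2 fold change was -0.55 (SE 0.385, adjusted p = 0.497 by limma). Oxct1, the succinyl-CoA transferase that activates acetoacetate and sets the capacity for ketone oxidation, read 10.98 and 11.05 against 10.56, 9.99 and 10.32. It fell by 0.72 (SE 0.189, adjusted p = 0.29 by limma). Acat1, the thiolase that splits acetoacetyl-CoA and also ends isoleucine breakdown, went from 11.84 and 11.76 to 11.29, 10.86 and 11.33 and fell by 0.64 (SE 0.176).

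Subunits and isoenzymes were compared within each array in 8 pairs, as the log2 signal of 1 gene minus that of its partner, so that only the change in this difference between groups is read. In 3 pairs the groups did not overlap. Sucla2 minus Suclg2 was 1.38 and 1.22 in non-I/R grafts and 1.04, 1.08 and 0.69 in I/R grafts, a change of -0.36 (exact two-sided permutation p = 0.1, the smallest that 5 grafts allow). That pair used the brighter probe set of Suclg2, with a log2 fold change of -0.40. The dimmer one, at -0.29, was not paired by itself. Mdh1 minus Mdh2 was -0.13 and -0.17 in non-I/R grafts and -0.32, -0.68 and -0.51 in I/R grafts, also a change of -0.36 (exact p = 0.2). Pcca minus Pccb changed by -0.19 (exact p = 0.2), with I/R 2 at 0.0236 close to non-I/R 2 at 0.0513. After adjustment over the 8 pairs the exact permutation p lay between 0.457 and 0.5, so no pair passed and the design could not have let one pass at 0.05.

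For the other 5 pairs the groups overlapped. The change was 0.23 for Pdha1 minus Pdhb, 0.21 for Bckdha minus Bckdhb and 0.10 for Mccc1 minus Mccc2. It was -0.21 for Idh3a minus Idh3b and -0.26 for Idh3a minus Idh3g, pairs that share a gene. As each graft was left out, the change for Idh3a minus Idh3b ran from -0.35 to -0.0755.

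**Figure D3:**
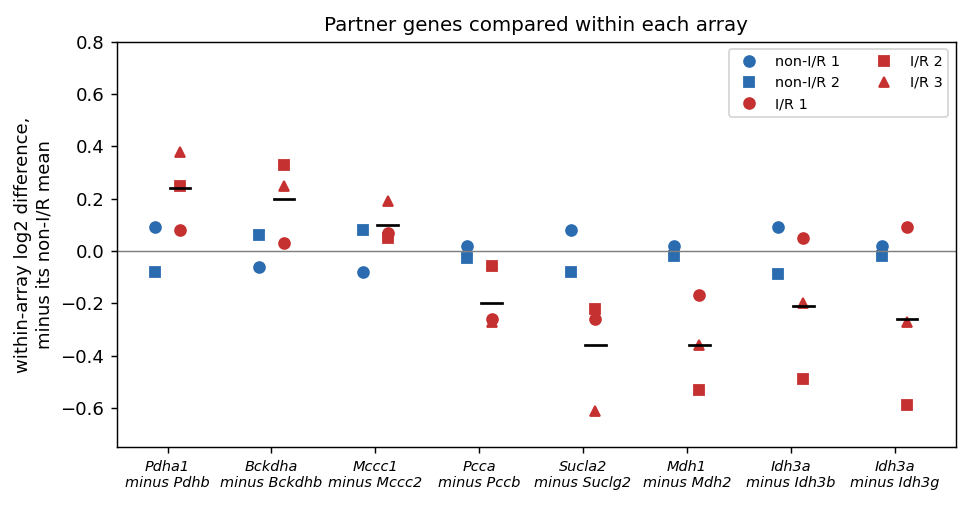
Within-array log2 difference between partner genes in each graft, after subtraction of its mean in the 2 non-I/R grafts (black lines, mean of the 3 I/R grafts). Sucla2 minus Suclg2, Mdh1 minus Mdh2 and Pcca minus Pccb have no overlap between the groups.

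Genes that surround these pathways were read in the same fit. Of 13 measured other genes of the citrate cycle and of reactions that refill or drain it, 5 fell and 1 rose, with a median log2 fold change of -0.47. Succinate dehydrogenase, which is also complex II of the respiratory chain, was among those that fell, with Sdhc at -0.71 (SE 0.158) and Sdhb at -0.49 (SE 0.14). Acly, which cleaves citrate in the cytosol to supply acetyl-CoA for lipid synthesis and histone acetylation, rose. Its signal was 8.41 and 8.45 in non-I/R grafts and 8.67, 8.84 and 8.80 in I/R grafts, a log2 fold change of 0.34 with an SE of 0.0617 (adjusted p = 0.282 by limma).

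Regulators of the pyruvate dehydrogenase complex that fell included a kinase, Pdk2, and a catalytic phosphatase subunit, Pdp1. Of 8 measured kinases, phosphatases and pyruvate carrier genes, 4 fell and 0 rose, with a median of -0.60. Pdk2, a kinase that switches the complex off, had signals of 11.89 and 11.47 in non-I/R grafts and 10.70, 10.22 and 10.72 in I/R grafts, and fell by 1.14 (SE 0.231, adjusted p = 0.282 by limma). The other kinases did not pass, with Pdk1 at -0.59 (SE 0.335), Pdk4 at -0.24 (SE 0.235) and Pdk3 at 0.13 (SE 0.118). Pdp1, a catalytic subunit of the phosphatase that switches the complex on, fell by 0.60 (SE 0.163). Pdpr, the regulatory subunit of that phosphatase, fell by 0.75 (SE 0.178). Among 6 measured genes of lipoate attachment and related dehydrogenases, 1 fell, with a median of -0.14. That gene was Ogdhl, a relative of Ogdh, at -1.06 (SE 0.319), while Gcsh, the lipoate-bearing protein of glycine cleavage, and Dhtkd1, a dehydrogenase of lysine breakdown, had log2 fold changes of -0.18 and -0.11.

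Around the branched-chain pathway, 3 of 10 measured genes fell and 1 rose, with a median of -0.47. The gene that rose was Bcat1, the cytosolic form of the transaminase, with signals of 8.31 and 8.48 in non-I/R grafts and 9.23, 9.35 and 9.26 in I/R grafts. The I/R grafts lay close together, and the log2 fold change was 0.89 (SE 0.0724, adjusted p = 0.276 by limma). Bcat2 minus Bcat1 within each array was 2.10 and 1.97 in non-I/R grafts and 0.65, -0.02 and 0.48 in I/R grafts, a change of -1.66 (exact two-sided permutation p = 0.1, the smallest possible). This pair was chosen after the value of Bcat1 was seen, and its change ran from -1.81 to -1.47 as grafts were left out. The groups did not overlap for either gene and differed in opposite directions. The difference therefore had to separate the groups as well, and its p adds no support.

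Both enzymes that set the phosphorylation of the branched-chain ketoacid dehydrogenase complex fell. Bckdk, the kinase that inactivates it, had signals of 10.29 and 10.13 in non-I/R grafts and 9.79, 9.72 and 9.76 in I/R grafts, and fell by 0.46 (SE 0.0602, adjusted p = 0.282 by limma). Ppm1k, the phosphatase that activates it, read 9.83 and 8.97 against 8.22, 7.5 and 7.73. Both non-I/R grafts lay above the I/R grafts but well apart from each other, and Ppm1k fell by 1.58 (SE 0.375, adjusted p = 0.286 by limma). Ppm1k is also in the study's own list of 2-fold changes.

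Of 3 measured other ketone body genes, 1 fell. It was Slc16a1, a carrier of ketone bodies, lactate and pyruvate across the cell membrane, at -0.73 (SE 0.208). Aacs, which uses acetoacetate for lipid synthesis in the cytosol, had a log2 fold change of 0.26 with an SE of 0.122 (adjusted p = 0.425 by limma), and Bdh2 one of -0.0206.

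Other mitochondrial pathways stood beside these genes as follows. In fatty acid oxidation 19 of 20 measured genes fell, with a median of -0.69, and the smallest p belonged to Fabp3, Cd36 and Crat at -0.90, -0.71 and -0.73. Among respiratory chain subunits 16 of 21 fell, with a median of -0.49, and Cycs, Cox5a and Uqcrc1 were at -0.47, -0.56 and -0.47. In the list of mitochondrial import and outer membrane genes 0 of 14 fell or rose, with a median of -0.11. There Timm23 had 4 probe sets, Vdac3 had 3, and Tomm20, Timm17a, Vdac2 and Hspd1 had 2 each. Only the brightest of each gene was read. Vdac1, Vdac3 and Timm44 had log2 fold changes of -0.42, -0.31 and -0.26. That list had 5 of 14 genes without overlap between groups and lower in I/R, while the fatty acid list had 20 of 20. The difference between the lists was not tested.

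Markers of heart muscle moved with the 36 genes, and they were bright in each graft, with the atrial and adult ventricular myosin heavy chain Myh6 between 12.25 and 13.19. Of 15 cardiomyocyte markers, which are sarcomere and calcium handling genes with creatine kinase (Ckm) and myoglobin (Mb), 12 fell and 0 rose, with a median log2 fold change of -0.51. Their mean deviation from the 5-graft mean was 0.417 and 0.286 in non-I/R grafts and -0.273, -0.362 and -0.0675 in I/R grafts, where that of the 36 genes was 0.455, 0.325, -0.0623, -0.592 and -0.126. The 36 genes minus the cardiomyocyte markers came to 0.0387 in each non-I/R graft and to 0.211, -0.23 and -0.0581 in the I/R grafts, so that on this scale the groups overlapped, with I/R 1 the highest and I/R 2 the lowest. In bulk tissue, fewer cells of a type and less RNA per cell cannot be told apart.

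Neutrophil markers were higher in I/R grafts for 5 of 12 genes and lower for Lcn2, with a median of 0.87, and their mean deviation was lowest in non-I/R 1 (-0.59) and highest in I/R 2 (0.64), the grafts at the 2 ends of the order for the 36 genes. Of the 6 atrial markers, Myl7 and Myl4 differed most within groups. Myl7, the atrial myosin light chain, read 10.67 and 5.52 in non-I/R grafts and 6.72, 11.08 and 8.56 in I/R grafts. Nr2f2 varied little, with an SD of 0.0795 between non-I/R grafts and 0.15 between I/R grafts. The mean deviation of the atrial list was high in non-I/R 1 (1.04) and I/R 2 (0.84), the highest and the lowest grafts for the 36 genes. Those means rested largely on Myl7 and on Myl4, which read 12.15 in non-I/R 1 and 12.19 in I/R 2. I/R 2 was the highest graft for Myl7, Myl4 and Nr2f2. It was below both non-I/R grafts for Tbx5 (8.76 against 9.58 and 9.05) and Nppa (12.56 against 12.95 and 12.61). Endothelial markers had a median of 0.11 with 0 of 12 called, and fibroblast markers one of -0.20 with 1 of 10 lower. Of the 7 fat markers measured, 1 fell and 0 rose, with a median of -0.0327. The marker that fell was Cidea, a lipid droplet protein of brown fat, with signals of 8.81 and 8.68 in non-I/R grafts and 7.80, 7.36 and 7.71 in I/R grafts, a difference of -1.12 on the log2 scale (SE 0.16, adjusted p = 0.282 by limma). Ucp1 and Adipoq, which define brown fat and fat cells, stayed between 5.22 and 5.30 and between 4.44 and 4.51, low on the scale of these arrays. The part of these cell markers in the result was not tested. Without both non-I/R 1 and I/R 2, a step added after the data had been seen, all 36 genes kept a lower mean in I/R grafts. The median log2 fold change was then -0.42. A lone non-I/R graft was left in that step, so the spread between non-I/R grafts could not be read.

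**Figure D4:**
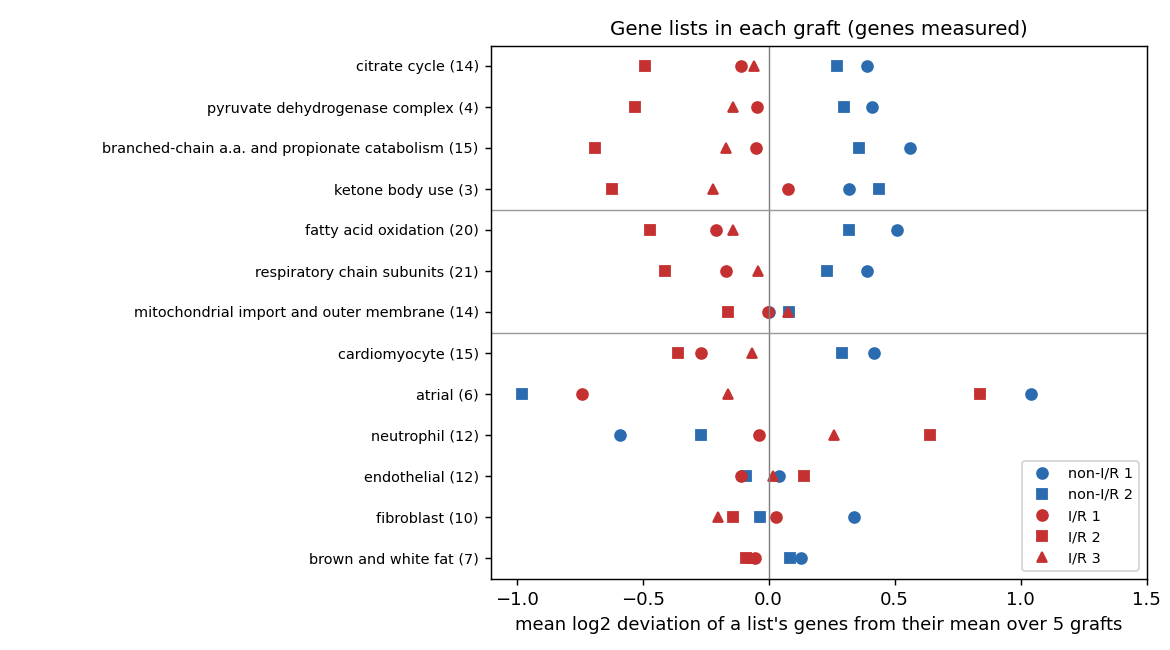
For each list of genes, the average distance in log2 units of a graft from the mean of all 5 grafts, with the number of genes measured in parentheses and 1 symbol for each graft. The groups of grafts separate for the 4 pathways described here, for fatty acid oxidation, for respiratory chain subunits and for cardiomyocyte and neutrophil markers. They also separate for fat markers, of which Cidea alone fell. They mix for mitochondrial import and outer membrane genes and for atrial, endothelial and fibroblast markers.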

How the data were processed

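The authors deposited log2 values for 35556 probe sets of 5 arrays, made with RMA, and Partek and RMA appear, with no version, in the submitters' processing notes. RMA corrects the background, puts arrays on a common distribution and can mask a shift common to most genes. The genome build behind the probe sets is not given in the sources used here. No columns of the authors' own comparisons were in the table, and the miRNA arrays were not analysed here.

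Gene names came from the platform annotation, in which 21789 probe sets had a single symbol, 1621 had several and 12146 were not listed. Values were tied between arrays in 11715 of the single-symbol probe sets and equal on all arrays in 757, but in none of the 36 genes. Groups were compared on the log2 values as deposited, with no filter, by limma 3.58.1 (lmFit, eBayes) in R 4.3.3, with Benjamini-Hochberg adjustment over all 21789. Pairs were compared by exact permutation of the grafts in Python 3.11.15, and plots were drawn with matplotlib 3.10.9. Steps were tested on simulated data. Members and lists were chosen with earlier results of these data known, and 2 genes (Auh and Ppm1k) had been seen in the study's table. All 36 genes were named, with the 3 genes of smallest p from each related list, the other pyruvate dehydrogenase kinases and the marker lists by graft. Alternatives were other centring and normalization, eBayes settings, array weights, the methods' t-test, signal filters, other choices of probe set and leaving out each graft. The number of arrays limits the precision.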

Additional observations from a re-analysis of the deposited data

How the results depend on the processing

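All 36 genes had a lower mean in I/R grafts under every alternative run. The count of 25 genes lower at an unadjusted p under 0.05 was 13 with the methods' t-test. As I/R grafts were left out in turn, it ran from 13 (without I/R 3) to 30 (without I/R 2). With either non-I/R graft left out, where a lone non-I/R graft was assumed to vary like the others, it was below 13. Under the remaining alternatives it was between 17 and 32. After adjustment, none of these limma fits gave a p under 0.05 for any probe set tested, and the methods' t-test passed 2 of 21789, neither of them among the 36. Without both non-I/R 1 and I/R 2, chosen after seeing the data, a lone non-I/R graft was left. Median log2 fold changes were then -0.32 for the citrate cycle, -0.35 for pyruvate dehydrogenase, -0.47 for branched-chain catabolism and -0.48 for ketone body use. Why these values moved was not tested, beyond the fewer grafts. No paired analysis was possible because the labels give no replicate numbers.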
